A study of Mus musculus with 9 samples.

Results

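The expression of 10 circadian clock genes was examined in mouse bone marrow-derived macrophages (BMDMs) that were resting, activated, or activated and treated with photobiomodulation (PBM), which is irradiation with low-power laser light. The genes were Arntl, Clock, Rora, Nr1d1, Nr1d2, Per1, Per2, Cry1, Cry2 and Dbp. They were chosen by name as the core of the clock, with earlier results of these data known. Each matched 1 row among the 55655 rows of the deposited tables. The BMDMs came from femur and tibia marrow of wild type C57BL/6 mice aged 6 to 8 weeks, matured for 7 days in M-CSF, the growth factor of macrophages, at 10 ng/mL. These resting cells are called M0. The M1 cells were M0 cells polarized with LPS, a component of the wall of bacteria, at 100 ng/mL, together with the cytokine IFN-γ at 20 ng/mL. The M1+PBM cells received the same LPS and IFN-γ and an 808-nm laser at 6 mW/cm2 for 7 minutes every 12 hours, while M1 controls stayed in the dark without laser. RNA of the activated groups was taken 12 hours after LPS and IFN-γ were added, and the harvest time of the M0 cells is not given. Each group held 3 libraries. Neither the time of day nor any synchronization of the cultures is given, and 1 time point per group shows a level and not a rhythm.

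The clock is a feedback loop of transcription. The proteins of Arntl (BMAL1) and Clock pair up, bind E-boxes and switch on the Per and Cry genes, whose proteins then restrain that pair. A further loop runs through Nr1d1 and Nr1d2 (REV-ERBα and REV-ERBβ), which repress Arntl through ROR elements, and Rora, which activates through the same elements. Dbp is an output factor of the loop that binds D-boxes. Macrophages carry a clock of their own, and REV-ERBα is known in them as a repressor of inflammatory genes such as Il6.

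These elements were searched for by their letters in the RefSeq promoter windows of GRCm38.p6, each spanning 250 bases before to 50 bases after a start. Of the 10 genes, 9 had entries, with 13 windows in all, and Per2 had none. The E-box CACGTG, which reads the same on both strands, was found in Per1 and Cry1. The ROR element core TNGGTCA, searched on both strands, was found in Arntl and Cry2, and the D-box TTANGTAA in 0 of the windows. By gene this is 2 of 9 for the E-box and 2 of 9 for the ROR core. Among all 27025 genes with such windows, 8.09% held the E-box, 12.4% the ROR core and 2.72% the D-box in at least 1, and among the 32851 windows the shares were 7.15%, 11.0% and 2.32%. The 3 windows below are shown because they hold matches to these letters in Arntl, Per1 and Cry1, whose levels follow. The pattern TNGGTCA is loose, as it allows any base at N, so a match need not be a ROR element. Among the matches only TAGGTCA in Arntl has A at N. Whether the loop acts through any of the matches was not tested. The capitals mark the matches.
Arntl: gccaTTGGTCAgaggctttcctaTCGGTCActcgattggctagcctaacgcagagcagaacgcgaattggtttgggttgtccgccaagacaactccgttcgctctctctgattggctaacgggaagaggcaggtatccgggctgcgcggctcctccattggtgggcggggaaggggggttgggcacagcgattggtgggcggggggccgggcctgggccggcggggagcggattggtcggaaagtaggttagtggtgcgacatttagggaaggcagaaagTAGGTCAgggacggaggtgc
Per1: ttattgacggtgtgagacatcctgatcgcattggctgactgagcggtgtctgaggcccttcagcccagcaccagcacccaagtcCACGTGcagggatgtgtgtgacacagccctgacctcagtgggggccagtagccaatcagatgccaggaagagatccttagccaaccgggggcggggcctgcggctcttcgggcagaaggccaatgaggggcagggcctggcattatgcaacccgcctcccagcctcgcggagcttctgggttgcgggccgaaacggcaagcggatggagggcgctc
Cry1: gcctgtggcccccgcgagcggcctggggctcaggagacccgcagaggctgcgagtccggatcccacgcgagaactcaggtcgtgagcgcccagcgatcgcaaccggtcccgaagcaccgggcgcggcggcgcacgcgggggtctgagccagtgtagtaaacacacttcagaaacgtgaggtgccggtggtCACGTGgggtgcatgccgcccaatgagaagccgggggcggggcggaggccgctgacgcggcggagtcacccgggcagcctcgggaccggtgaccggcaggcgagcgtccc

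The Arntl window lies at chr7:113207261-113207560 on the plus strand. Its ROR core matches begin at -246 (TTGGTCA), -227 (TCGGTCA) and 31 (TAGGTCA), counted from the start, with no position 0. A further Arntl window at chr7:113207215-113207514 overlaps it and holds the same bases of the matches TTGGTCA and TCGGTCA. The Per1 window lies at chr11:69098699-69098998 on the plus strand, with its E-box beginning at -166. The Cry1 window lies at chr10:85185005-85185304 on the minus strand, with its E-box at -60. In Cry2 the ROR core was on the opposite strand at -133 (TGACCAA). A match of letters is a description and no measurement of binding.

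Expression was given as FPKM, in which the fragments of a gene are divided by transcript length and by library depth, so levels of different genes can be set side by side. The depth, estimated from the steps between low FPKM values, was 30740000 to 42200000 fragments per library. M0 is in a table of its own with the same rows, and whether both tables were normalized together is not given, so levels set across them are values with no test. The macrophage markers Adgre1, Itgam, Csf1r, Cd68 and Lyz2 were present in all 9 libraries, and of 5 neutrophil markers S100a9 and Ly6g were listed at 0 in all, while Mpo and Elane were at most 0.0177. S100a8, a further neutrophil marker, had an FPKM of 1.13 to 2.11 in M0, 6.90 to 27.2 in M1 and 4.94 to 14.5 in M1+PBM, so that it was higher in both activated groups without overlap. M0 replicate 3 stood apart. The summed FPKM of 6 genes of the M1 state was 256 in it against 16.0 to 18.1 in the other M0 libraries and 941 to 1227 in M1, and that of 4 stromal genes was 177 against 5.14 to 6.42. M1 replicate 2 had a summed FPKM of 18.8 for 8 liver genes, against 2.06 to 3.61 in the other M1 libraries, and Alb was above 0 in it alone. The stromal sum was 8.10 to 11.7 in M1 and 3.23 to 25.2 in M1+PBM. In M1+PBM the M1 state genes summed to 590 to 871, below M1. The part of these differences in the clock gene levels was not tested, and in bulk RNA fewer cells of a type and less RNA per cell cannot be told apart.

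Of the 10 genes, 4 were lower in M1 than in M0 with no overlap between the libraries, and these were Arntl, Clock, Rora and Dbp. The other 6 overlapped, and 0 were higher without overlap. This has to be read against all genes. A minimum FPKM of 1, met in 3 or more of these 6 libraries, was passed by 13593 rows. Of these, 51.5% were lower without overlap and 15.3% higher, and the median difference of log2(FPKM + 1) was -0.35. The share of clock genes that were lower was therefore near the share of all rows. Arntl, Rora and Dbp passed that minimum only through M0, and Per2 did not pass it.

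**Figure D1:**
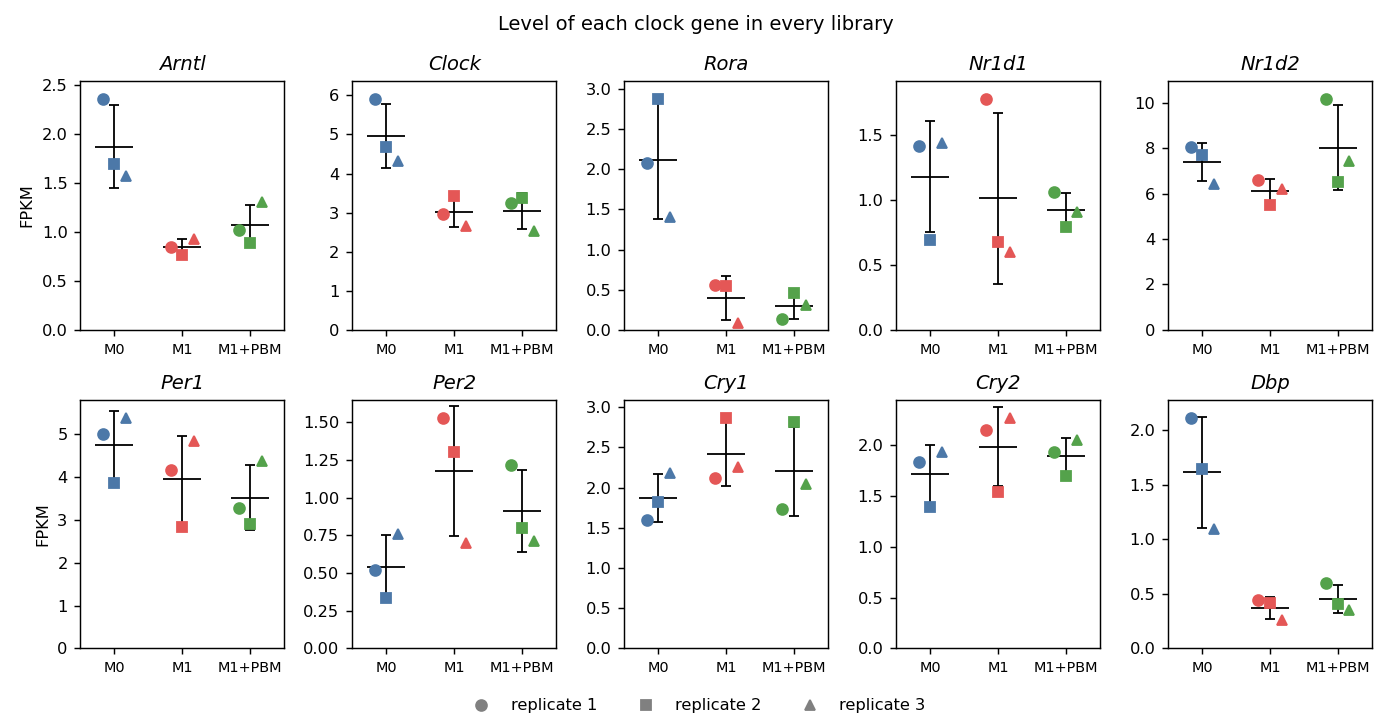
FPKM of the 10 clock genes in each of the 9 libraries (y axes, each from 0), by group (x axes). Points are libraries, with a shape for each replicate number, and the horizontal bar and whiskers are the mean and SD of 3 libraries. Arntl, Clock, Rora and Dbp lie higher in every M0 library than in any M1 or M1+PBM library, and the M1 and M1+PBM points overlap for all 10 genes.

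Arntl, the gene of BMAL1, had an FPKM of 2.35, 1.69 and 1.57 in M0 replicates 1 to 3. It had 0.846, 0.767 and 0.930 in M1 and 1.02, 0.890 and 1.30 in M1+PBM. The lowest M0 library was above the highest activated library. The mean was 1.87 ± 0.42 in M0 and 0.848 ± 0.081 in M1 (SD over 3 libraries), which is 2.21-fold lower. In M1+PBM it was 1.07 ± 0.21, 1.75-fold lower than in M0. Clock, whose protein is the partner of BMAL1, had 5.90, 4.68 and 4.32 in M0 and 2.97, 3.41 and 2.65 in M1. In M1+PBM it had 3.26, 3.37 and 2.52, so that M0 again lay above both activated groups while these overlapped. The mean of Clock was 1.65-fold lower in M1 than in M0. A pseudogene, Ube2n-ps1, and Gm43658 lie within the span of Clock on the same strand and share 0 exonic bases with it, and Gm45355 shares 33 bases with Arntl on the other strand.

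The receptors of the second loop differed from each other. Rora, the activator, had an FPKM of 2.08, 2.87 and 1.40 in M0, 0.560, 0.543 and 0.0862 in M1 and 0.135, 0.464 and 0.304 in M1+PBM. All activated libraries were below all M0 libraries, with a mean 5.34-fold lower in M1 and 7.03-fold lower in M1+PBM. The spread within the activated groups was wide, and at most 29.4 fragments stood behind the lowest value, by the longest annotated transcript. Nr1d1, the gene of REV-ERBα, had 1.41, 0.688 and 1.43 in M0, 1.77, 0.675 and 0.596 in M1 and 1.06, 0.795 and 0.905 in M1+PBM. M1 replicate 1 was the highest and M1 replicate 3 the lowest of all 9 libraries, so no group stood apart. Nr1d2, the gene of REV-ERBβ, had 8.04, 7.70 and 6.42 in M0 and 6.61, 5.51 and 6.18 in M1. It had 10.1, 6.51 and 7.42 in M1+PBM, where replicate 1 was the highest of all libraries. M0 overlapped with each activated group for Nr1d2.

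The repressors of the CLOCK and BMAL1 pair did not share a pattern. Per1 had an FPKM of 5.02, 3.86 and 5.38 in M0, 4.17, 2.83 and 4.84 in M1 and 3.27, 2.91 and 4.38 in M1+PBM, and its groups overlapped. Its means were 4.76 ± 0.79 in M0, 3.95 ± 1.02 in M1 and 3.52 ± 0.76 in M1+PBM (SD over 3 libraries). Per2 had 0.522, 0.334 and 0.761 in M0, 1.53, 1.30 and 0.696 in M1 and 1.22, 0.799 and 0.710 in M1+PBM. The mean of Per2 was 2.18 times that of M0 in M1, but M1 replicate 3 lay below M0 replicate 3. Cry1 had 1.59, 1.82 and 2.18 in M0, 2.13, 2.87 and 2.26 in M1 and 1.74, 2.82 and 2.05 in M1+PBM. M1 replicate 1 was below M0 replicate 3 for Cry1 and kept the groups from parting. Cry2 had 1.84, 1.40 and 1.93 in M0, 2.15, 1.54 and 2.27 in M1 and 1.93, 1.70 and 2.05 in M1+PBM, with overlap between all groups. D930015M05Rik shares 295 exonic bases with Cry2 on the other strand, at an FPKM of at most 0.651.

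Dbp, the output factor, had an FPKM of 2.11, 1.64 and 1.09 in M0, 0.439, 0.416 and 0.256 in M1 and 0.596, 0.408 and 0.356 in M1+PBM. The M0 libraries were above all activated libraries, and the mean of 1.61 ± 0.51 in M0 was 4.36-fold that of M1 (0.370 ± 0.0997) and 3.56-fold that of M1+PBM (0.453 ± 0.126, SD over 3 libraries). By upper estimates 14.7 to 38.0 fragments stood behind Dbp in the activated libraries. Dbp shares 539 exonic bases with Sphk2 on the other strand, whose FPKM was 12.0 to 23.8, and whether strand was used in counting is not stated. Sphk2 had 13.9, 23.8 and 12.0 in M0 and 18.0, 18.5 and 23.4 in M1, so its groups overlapped. The part of Sphk2 in the level of Dbp was not tested. The same limit holds for Nr1d1, which shares 263 bases with Thra (FPKM 1.28 to 2.39), and for Rora, which shares 82 with Gm15511. Both Thra and Gm15511 were lower in every activated library than in any M0 library. Thra had 1.98 to 2.39 in M0 and at most 1.75 in the activated libraries, and Gm15511 had 0.209 to 0.550 and at most 0.192. The part of this in the levels of Nr1d1 and Rora was not tested.

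The order of the levels also shifted. Nr1d2 was the highest of the 10 genes in every group, and in each group its lowest library was above the highest library of the next gene. In M0, Clock and Per1 followed and overlapped with each other, Rora, Arntl, Cry1, Cry2, Dbp and Nr1d1 formed a series in which all neighbours overlapped, and Per2 was the lowest by mean, with overlap to Nr1d1. In M1 the order was Per1, Clock, Cry1 and Cry2, with overlap between neighbours, then Per2, Nr1d1 and Arntl, and then Rora and Dbp. The steps from Cry2 to Per2 and from Arntl to Rora were without overlap. In M1+PBM the same 4 genes followed Nr1d2, a step without overlap led to Arntl, Nr1d1 and Per2, which overlapped, and Dbp and Rora were lowest, again parted from Per2 without overlap. Rora thus held rank 4 by mean level in M0, rank 9 in M1 and rank 10 in M1+PBM.

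Scaling decided part of the comparison with M0. After median-of-ratios scaling over the 9 libraries the median difference of all rows between M1 and M0 was 0.053 in place of -0.35. The share of the 13204 rows lower without overlap was then 24.6%, and 32.5% were higher. On this scale 3 clock genes were lower without overlap, Arntl (difference of log2(FPKM + 1) of -0.34), Dbp (-0.68) and Rora (-0.90). As many were higher, Per2 (0.68), Cry1 (0.58) and Cry2 (0.45). Clock kept its lower mean (-0.17) with overlap, and Per1, Nr1d1 and Nr1d2, lower by mean as deposited, were higher by mean after scaling (0.18, 0.11 and 0.20), with overlap. Under both scalings Arntl, Clock, Dbp and Rora lay below the median difference of all rows and the other 6 genes above it. The log2(FPKM + 1) scale understates the differences of weakly expressed genes.

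**Figure D2:**
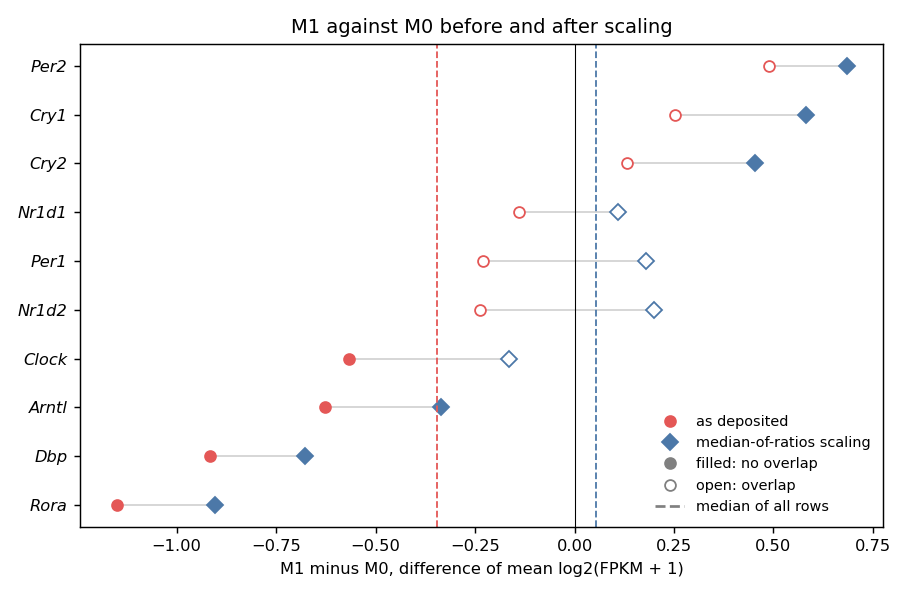
Difference between M1 and M0 in mean log2(FPKM + 1) (x axis) for the 10 clock genes (y axis), as deposited (circles) and after median-of-ratios scaling (diamonds). Filled symbols are genes whose 3 M1 libraries did not overlap with the 3 M0 libraries, and dashed lines are the medians of all rows, -0.35 as deposited and 0.053 after scaling. Arntl, Clock, Dbp and Rora lie left of the median line under both scalings, and Per2, Cry1 and Cry2 are filled at the right after scaling.

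Single libraries mattered as well. Without M0 replicate 3, the M0 library with the highest stromal and M1 state gene sums, 7 clock genes did not overlap between M1 and M0, where 74.8% of all rows did not. Nr1d2 joined the 4 lower genes, and Per2 (2.75 times M0) and Cry1 (1.42 times) were higher. Arntl, Clock, Rora and Dbp stood at 0.419, 0.570, 0.160 and 0.198 times the M0 mean without it, against 0.453, 0.607, 0.187 and 0.229 with it. Without M1 replicate 1 the count was also 7, against 69.8% of all rows, with Nr1d1 and Nr1d2 beside the 4 lower genes and Cry1 higher. Nr1d1 was then at 0.539 times M0, against 0.861 with all libraries.

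M1+PBM was set against M0 in the same way, with the same M0 libraries, so this comparison shares its reference with that of M1. Again 4 clock genes were lower without overlap, Arntl, Clock, Rora and Dbp, and 0 were higher, where 47.2% and 15.4% of 13583 rows did so, with a median difference of -0.28 over all rows. After scaling Dbp and Rora were lower and Per2, Cry1, Cry2 and Nr1d2 higher without overlap, against 23.3% and 30.9% of rows. The mean of Nr1d2 was 1.09 times M0 as deposited and 1.45 times after scaling. Clock was at 0.614 times M0 in M1+PBM and at 0.607 times in M1, and Arntl at 0.571 and 0.453 times.

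Ratios of clock genes within a library do not depend on the scaling between libraries. The ratio of Arntl to Dbp was 1.11, 1.03 and 1.43 in M0, 1.93, 1.85 and 3.63 in M1 and 1.70, 2.18 and 3.65 in M1+PBM. Both activated groups were above M0 without overlap, so Dbp was further below M0 than Arntl was. The ratio of Per1 to Per2 was 9.62, 11.6 and 7.08 in M0, 2.73, 2.17 and 6.96 in M1 and 2.69, 3.65 and 6.17 in M1+PBM. It was lower in every activated library, though M1 replicate 3 and M0 replicate 3 were close, and without M0 replicate 3 the lowest M0 ratio was 9.62. The ratio of Clock to Arntl was 2.51 to 2.76 in M0 and 2.85 to 4.45 in M1, without overlap but close. It was 1.94 to 3.78 in M1+PBM, with overlap. Arntl to Nr1d1, Cry1 to Cry2 and Nr1d1 to Nr1d2 overlapped between all groups. The share of ratios of other gene pairs that part M0 from the activated groups was not computed, so the parted ratios have no background. Between M1 and M0, Arntl and Dbp passed the minimum FPKM only through M0, and Per2 did not pass it. Between M1+PBM and M1 the 6 ratios gave a two-sided exact permutation p of 0.5 to 0.9, which was 0.9 for each after Benjamini-Hochberg adjustment over the 6 (3 libraries against 3 cannot go below 0.1).

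**Figure D3:**
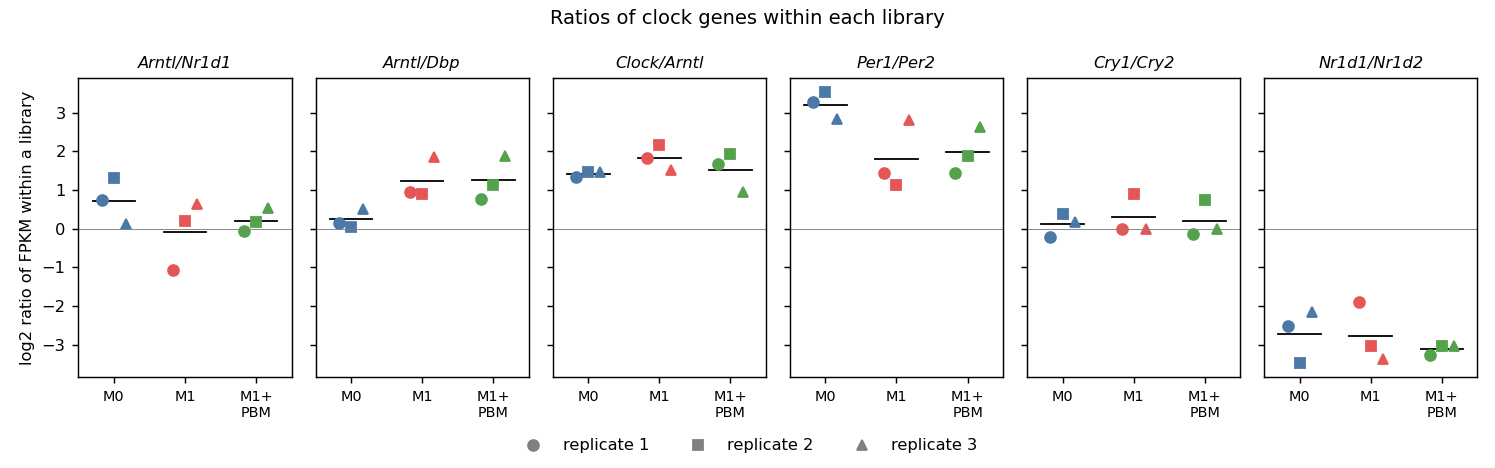
Log2 ratio of the FPKM of 2 clock genes within each library (y axis) by group (x axis), for 6 pairs of genes. Points are libraries, with a shape for each replicate number, and bars are means of 3. Arntl to Dbp is higher and Per1 to Per2 lower in all 6 activated libraries than in the 3 M0 libraries, and M1 and M1+PBM overlap for all pairs.

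The comparison of M1+PBM with M1 asked whether PBM moved clock genes within activated macrophages. None of the 10 genes parted the groups without overlap, where 2.52% of all 12238 rows tested were lower and 8.51% higher. In limma, run on log2(FPKM + 1), 6 clock genes were tested, and 0 reached an adjusted p under 0.05 or an unadjusted 0.05. Over all rows tested these shares were 0.00817% (1 row) and 4.44% (543 rows). Arntl, Nr1d1, Dbp and Rora were under the minimum FPKM and were taken from a limma fit with no minimum. The median difference of all rows was 0.058.

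Nr1d2 had the largest difference of the 10, 0.33 on the log2 scale, with a standard error of 0.16 and a 95% interval from -0.063 to 0.72. Its adjusted p in limma was 0.90, with 0.087 before adjustment. Its FPKM with PBM was 1.53, 1.18 and 1.20 times that of the same-numbered M1 library, and M1 replicate 1 (6.61) was above M1+PBM replicate 2 (6.51). With the replicate number as a block the standard error was 0.10, the interval was 0.054 to 0.60, and the unadjusted p of limma was 0.028, with an adjusted p of 0.58. Nr1d2 was the 1 of 6 clock genes to pass an unadjusted 0.05 with the block, as 8.07% of all rows did. It also did so without M1+PBM replicate 2 (difference 0.45, unadjusted limma value 0.033), and its difference was 0.17 without M1+PBM replicate 1 and 0.26 after scaling. Arntl was likewise higher in each same-numbered pair, by 1.20, 1.16 and 1.40 times, with M1 replicate 3 (0.930) above M1+PBM replicate 2 (0.890). The difference of Arntl was 0.16 ± 0.12 (SE), in an interval from -0.13 to 0.44 (limma with no minimum, adjusted p = 0.90).

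For Clock the difference was 0.010, with an interval from -0.29 to 0.31 on the log2 scale (limma, adjusted p = 0.99), and its same-numbered ratios were 1.10, 0.986 and 0.950. Per1 had -0.12, from -0.59 to 0.35 (adjusted p = 0.93, limma), and Per2 had -0.18, from -0.62 to 0.27 (adjusted p = 0.90, limma). Per2 was 0.798 and 0.614 times the M1 value in replicates 1 and 2 and 1.02 times in replicate 3. Cry1 was lower in each pair, 0.819, 0.984 and 0.907 times, with a difference of -0.10 and an interval from -0.48 to 0.27 (adjusted p = 0.92, limma). Cry2 had -0.040, from -0.34 to 0.26 (adjusted p = 0.97, limma). The intervals of the 5 genes reach both sides of 0, and a change of a size within them cannot be told from 0 in these libraries.

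Among the genes under the minimum, Dbp had a difference of 0.084 with an interval from -0.15 to 0.32 (limma with no minimum, adjusted p = 0.90). Nr1d1 had -0.024, from -0.61 to 0.56, and its same-numbered ratios went opposite ways, 0.598 in replicate 1 and 1.18 and 1.52 in replicates 2 and 3. Rora had -0.090, from -0.52 to 0.34, with ratios of 0.240, 0.855 and 3.53. The adjusted p was 0.99 for Nr1d1 and 0.93 for Rora in the same fit. M1 replicate 2, the library with the highest liver gene sum, was left out in turn. Without it 5 clock genes were tested, as Per2 fell under the minimum FPKM, and 0 of them reached an unadjusted 0.05 in limma, and the difference of Nr1d2 was 0.27.

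**Figure D4:**
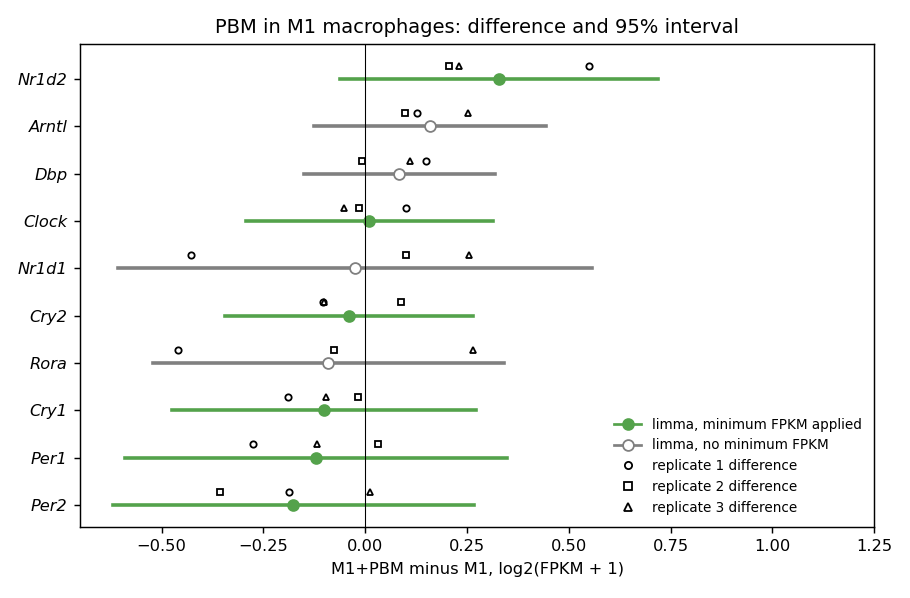
Difference between M1+PBM and M1 in log2(FPKM + 1) (x axis) for the 10 clock genes (y axis). Large points and bars are limma estimates with 95% intervals, green with the minimum FPKM applied and grey with none, and small symbols are the differences of same-numbered libraries. Each interval reaches both sides of 0, and Nr1d2 and Arntl have all 3 small symbols above 0.

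A further 33 genes that work with the clock or are known to be repressed by REV-ERB were taken as 5 lists. In M1, 13 of the 33 were lower than M0 without overlap and 6 higher as deposited, and 6 were lower and 12 higher after scaling. The minimum FPKM was passed by 24 of them, and the counts also hold genes under it. As deposited these were Npas2, Arntl2, Per3, Usp2 and Fbxl21 among the lower and Ciart among the higher. The shares of all rows given above, 51.5% and 15.3%, and after scaling 24.6% and 32.5%, are the background for each list. They hold only rows that passed the minimum, so counts and shares are not of like sets. Between M1+PBM and M1, 22 were tested, of which 0 reached an adjusted p under 0.05 (limma). An unadjusted 0.05 was reached by 3 in limma, all lower with PBM, where 4.44% of all rows did. Of these 3, 2 are in the list of genes repressed by REV-ERB (6 tested) and 1 is a further clock transcription factor (4 tested). With the replicate block 5 had such a p, 3 in the REV-ERB list and 2 among those factors, against 8.07% of all rows. The lists were drawn up with earlier results of these libraries known, so these counts are no independent evidence.

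Of 11 further clock transcription factors, 6 were lower in M1 than in M0 without overlap and 1 higher as deposited, against 51.5% and 15.3% of all rows. After scaling 3 were lower and 2 higher, against 24.6% and 32.5%. The minimum FPKM behind these shares was passed by 4 of the 11. The E-box repressors Bhlhe40 and Bhlhe41 (DEC1 and DEC2) were lower by mean in M1. Bhlhe40 had an FPKM of 11.7, 14.5 and 6.67 in M0, 6.01, 5.49 and 2.64 in M1 and 2.32, 3.08 and 1.81 in M1+PBM. M1 replicate 3 lay between the M1+PBM libraries, and the difference with PBM was -0.71 ± 0.28 (SE; limma, adjusted p = 0.90). Before adjustment limma gave 0.040, and 0.0069 with the block. Bhlhe41 had 12.2, 17.3 and 11.8 in M0, 8.03, 11.0 and 1.53 in M1 and 5.31, 8.60 and 2.29 in M1+PBM. For both, M0 and M1 overlapped after scaling. Nfil3, a repressor that binds D-boxes, had 3.06, 2.49 and 4.36 in M0 and 6.99, 4.30 and 17.3 in M1, which parted only after scaling. It had 4.38, 3.85 and 9.54 in M1+PBM, with a limma p of 0.36 and of 0.022 with the block (adjusted p = 0.58).

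Npas2, Per3, Tef, Arntl2 and Ciart were named after their values were seen. Npas2, a paralog of Clock whose protein can also pair with BMAL1, had an FPKM of 1.78, 1.93 and 0.934 in M0 and 0.0129 to 0.0816 in M1 and M1+PBM. Per3 had 1.58, 0.861 and 1.28 in M0 and 0.381, 0.456 and 0.224 in M1. Tef, a D-box factor related to Dbp, had 6.20, 4.21 and 4.51 in M0, 3.04, 3.13 and 1.98 in M1 and 3.90, 3.26 and 3.58 in M1+PBM. Npas2, Per3 and Tef stayed lower in M1 without overlap after scaling. Tef was also higher in M1+PBM than in M1 without overlap, with a difference of 0.31 and a standard error of 0.15 (limma, adjusted p = 0.90). Arntl2 was lower in M1 without overlap at an FPKM of at most 0.218, and parted no more after scaling. Ciart, a repressor of the same loop, had 0.762, 0.541 and 0.603 in M0 and 1.07, 0.831 and 0.955 in M1 and was higher without overlap under both scalings. Rorb was listed at 0 in all 9 libraries.

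Of the 10 genes for kinases and turnover of PER and CRY, 4 were lower in M1 without overlap and 0 higher as deposited. The shares of all rows were 51.5% and 15.3%. After scaling 2 were lower and 4 higher, against 24.6% and 32.5% of all rows. The minimum FPKM behind these shares was passed by 8 of the 10. Csnk1e, a kinase of PER proteins, had an FPKM of 6.40, 6.37 and 5.06 in M0, 1.91, 1.86 and 1.63 in M1 and 1.61, 1.89 and 1.84 in M1+PBM. It was 3.31-fold lower in M1 than in M0 and lower without overlap under both scalings. Usp2 and Fbxl21, named after their values were seen, were also among the 4 lower genes, and Usp2 stayed lower after scaling (0.954 to 1.66 in M0, 0.122 to 0.667 in M1). Fbxl21 was higher in M1+PBM than in M1 without overlap at an FPKM of at most 0.157. Csnk1d, Prkaa1, Fbxw11 and Btrc were the 4 higher after scaling. Fbxw11 had 20.02, 20.6 and 21.8 in M0 and 21.2, 24.4 and 34.3 in M1, and Gsk3b had 15.3, 7.06 and 14.0 in M0 and 9.80, 10.8 and 7.05 in M1. Of the 8 tested with PBM, 0 reached an unadjusted 0.05 (limma), where 4.44% of all rows did.

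Both genes of the REV-ERB corepressor were lower in M1 without overlap as deposited, as 51.5% of all rows were, and both overlapped after scaling. Ncor1, the corepressor that REV-ERB recruits, had an FPKM of 11.8, 11.8 and 12.4 in M0, 9.17, 9.32 and 10.3 in M1 and 10.0, 10.5 and 11.4 in M1+PBM. Hdac3, its histone deacetylase, had 8.35, 7.73 and 9.12, then 5.67, 6.33 and 5.63, and then 6.00, 5.84 and 7.96. Of 3 output genes, 1 lay above M0 in M1 and 1 below it, both without overlap under both scalings. Over all rows 15.3% were higher and 51.5% lower as deposited, and 32.5% and 24.6% after scaling. Nampt, which makes a precursor of NAD, had 18.9, 24.5 and 28.2 in M0 and 85.4, 98.7 and 75.0 in M1, 3.62 times the mean. Wee1, a kinase that holds back mitosis, had 6.50, 3.88 and 5.89 in M0 and 0.740, 0.982 and 0.543 in M1, 7.18-fold lower. Cdkn1a, a cell cycle inhibitor, had 38.0, 17.1 and 61.5 in M0 and 49.8, 46.0 and 85.5 in M1, with overlap.

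The last list holds 7 genes known to be repressed by REV-ERB in macrophages, most of which LPS is also known to induce. Of these, 4 were higher in M1 than in M0 without overlap as deposited, Il6, Ccl2, Il1b and Nlrp3, where 15.3% of all rows were. The other 3 overlapped. Of them Tlr4 and Cx3cr1 were lower by mean in M1, at an FPKM of 4.72 against 13.3 in M0 and 0.819 against 1.76. Mmp9 was higher by mean, at 5.04 against 3.80. Nlrp3, Tlr4, Cx3cr1 and Mmp9 were named after their values were seen. With PBM, 6 of the 7 were lower by mean than in M1, 2 of them without overlap, where 34.4% of all rows tested were lower by mean and 2.52% lower without overlap. Il6, a cytokine, had an FPKM of 21.7, 14.9 and 25.3 in M1 and 3.40, 7.30 and 1.20 in M1+PBM, a difference of -2.29 ± 0.47 (SE; limma, 0.0023 before adjustment, adjusted p = 0.90). Il1b had 826, 1077 and 844 in M1 and 409, 629 and 316 in M1+PBM, a difference of -1.07 ± 0.26 (SE; limma, 0.0058 before adjustment, adjusted p = 0.90). Ccl2 had 217, 66.1 and 245 in M1 and 129, 43.8 and 150 in M1+PBM, with a limma p of 0.33 and of 4.1e-04 with the block (adjusted p = 0.53). In the same libraries the M1 state genes summed to less in M1+PBM than in M1, as given above. This list was drawn up with earlier results of these libraries known, so the direction of its members is no independent evidence.

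For 4 clock genes the rows with the most similar pattern over the 9 libraries were looked up among 13631 rows, by Pearson's r of log2(FPKM + 1), as a description. Those of Arntl included C230053D17Rik (r = 0.991), and those of Nr1d1 included Mrps18a (0.928) and Abhd11 (0.895). Those of Cry1 were Brpf3 (0.936), Dapk3 (0.932) and Rab3ip (0.919). Per1 was most like Basp1 (0.965), Tpi1 (0.960) and Gm12226 (0.949). Tpi1, an enzyme of glycolysis, had 69.2, 60.4 and 82.7 in M0, 56.7, 31.5 and 76.2 in M1 and 36.4, 34.2 and 75.4 in M1+PBM, with replicate 2 lowest and replicate 3 highest in each group. The 9 points share 3 groups, 2 tables and the replicate numbers, and 0 of the rows named here is a clock gene of the lists used here.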

How the data were processed

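Strand-specific TruSeq libraries were sequenced on an Illumina HiSeq. The authors deposited FPKM in 2 tables, M0 in one and M1 and M1+PBM in the other, with 55655 rows each. Their methods name Cufflinks methods, and the submitters' processing notes list Bowtie 0.12.2 and mm9. Row names of the form MSTRG (320) are those of an assembler. The annotation, filters and strand setting of the counting are not given in the sources used here. Symbols and overlapping genes were taken from GENCODE M21 (GRCm38), with 55154 rows matched.

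Groups and replicate numbers came from the labels. The paper reports 3 independent repeats of its RNA-seq experiment. Nothing says that replicates were separate animals, so p-values measure the spread between these samples, whose source is not given. The effect of PBM in M1 cells was tested with limma 3.58.1 in R 4.3.3 (eBayes with a trend) on log2(FPKM + 1), with a pseudocount of 1, over the 12238 rows that reached an FPKM of 1 in 3 or more of the 6 libraries, with Benjamini-Hochberg adjustment over all of them. The script was tested on simulated data. M0 entered no test, because it is in a table of its own and whether both tables were normalized together is not given. The row names of both are identical and in the same order. Median-of-ratios scaling used the 21096 rows above 0 in all 9 libraries.

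The depth was chosen as the one that best put low FPKM values on whole multiples of the value of 1 fragment. With it, 33.4% to 37.0% of low values per library were whole within 0.05. Evenly spread values give 10% at a depth set beforehand, so these shares do not test the depth. No reads could be recovered from the FPKM values, so counts were not tested. Fragments behind a gene are upper estimates from its longest transcript and rest on the estimated depth.

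The deviations of same-numbered M1 and M1+PBM libraries from their group means correlated across genes (r of 0.157, 0.469 and 0.462 for replicates 1 to 3, and -0.491 to 0.0328 between other numbers). Deviations from a shared group mean are tied to each other, so these values are not independent. On this basis, taken from the same libraries, limma was also run with the replicate number as a block. The main fit did not use the numbers.

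All 10 clock genes were described. Of the other lists, genes with an unadjusted p of at most 0.05 with PBM and the 3 largest differences between M1 and M0 per list were named, with genes overlapping a clock gene and the 3 rows most like Arntl, Nr1d1, Cry1 and Per1. Some of the genes this rule or the lists hold are not reported here. The members and lists were chosen with earlier results of these data known. As alternatives, the pseudocount was set to 0.1, the minimum FPKM dropped, and limma run after median-of-ratios scaling, with the replicate block, with eBayes without a trend and with each library left out. No minimum with the block was added after seeing the data.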

Additional observations from a re-analysis of the deposited data

How the results depend on the processing

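The lower levels of Arntl, Clock, Dbp and Rora in M1 and M1+PBM against M0 kept their direction under a pseudocount of 0.1, scaling and each library left out. The count of clock genes apart from M0 was 4 as reported and 4 to 7 in M1 and 4 to 6 in M1+PBM over the libraries left out. It was 7 in M1 without M0 replicate 3 and 7 without M1 replicate 1, where 74.8% and 69.8% of all rows did not overlap. These counts of clock genes were near those shares. For the other libraries left out, and for M1+PBM, the share of all rows was not computed. The cause was not tested.

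Between M1+PBM and M1, 0 clock genes passed an unadjusted 0.05 in limma, 1 (Nr1d2) did with the replicate block, 1 with no minimum FPKM and the block, and 0 to 1 without single libraries (1 without M1+PBM replicate 2, with Per2 under the minimum and 5 genes tested without M1 replicate 1 or 2 or M1+PBM replicate 1). Among the genes of the 5 further lists 3 passed, 2 of them in the list of genes repressed by REV-ERB. With the replicate block 5 passed, 3 of them in that list. Over all rows 543 passed, 1318 with no minimum FPKM (more rows tested), 988 with the replicate block, and 252 to 1092 without single libraries (312 and 1092 without M1 replicates 1 and 2, 252, 924 and 326 without M1+PBM replicates 1 to 3). The 1 row with an adjusted p under 0.05 became 0 to 1, and was 0 without M1 replicate 1, 2 or 3. The replicate block changed no other call, and the exact test of same-numbered differences in the 6 ratios passed 0, as did the test without the pairing (its smallest p with 3 pairs is 0.25).

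Small differences changed sign. Clock was -0.048 after scaling, and Nr1d1 was 0.016 with a pseudocount of 0.1. Without single libraries the difference lay between -0.055 and 0.11 for Clock, -0.29 and 0.0097 for Per1, -0.24 and 0.0043 for Cry1, -0.15 and 0.030 for Cry2, -0.17 and 0.23 for Nr1d1, and -0.26 and 0.0045 for Rora. In the log2 ratios it lay between -0.21 and 0.65 for Arntl to Nr1d1, -0.28 and 0.34 for Arntl to Dbp, -0.15 and 0.69 for Per1 to Per2, -0.37 and 0.21 for Cry1 to Cry2, and -0.64 and 0.093 for Nr1d1 to Nr1d2. None of these passed a test. Dbp had the fewest estimated fragments of the 10 in each activated library (at most 38.0), and no interval for counting error could be computed without reads.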
